A study of Rattus norvegicus with 16 samples.

Results

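The miR-10 and miR-196 families are small RNAs whose genes lie inside the Hox clusters. All miRNAs on a rat array that carry the names rno-miR-196a, rno-miR-196b, rno-miR-196c, rno-miR-10b or rno-miR-10a (with any ending but an asterisk, which marks a passenger strand) were taken. This gave 6 of 350: miR-10a-5p, miR-10a-3p, miR-10b, miR-196a, miR-196b and miR-196c. The rule used names and no measured value, but it was set with earlier results of these data known. The study measured miRNAs in kidney and plasma of rats with contrast-induced acute kidney injury (CI-AKI), in which an iodinated X-ray contrast medium harms the kidney. The 4 groups were CI-AKI kidney, control kidney, CI-AKI plasma and control plasma, with 4 pools each. All rats were male Sprague-Dawley animals that went without water for 3 days and then received furosemide, a diuretic, at 10 mg/kg into a muscle, so the controls carried this stress too. CI-AKI rats then received the contrast medium Omnipaque (350 mg iodine per ml, 10 ml/kg) through the tail vein over 5 min, control rats an equal volume of saline, and blood and kidney were taken 8 h later. Each pool held RNA of 3 rats, from 12 rats per treatment and 24 in all, so the spread between pools understates that between single animals.

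Hox genes code for transcription factors that give cells their position along the head-to-tail axis. miR-196 pairs almost perfectly with the Hoxb8 transcript and directs its cleavage in the mouse, and miR-10 has been studied as a regulator of Hox transcripts. Both families are also found in the adult kidney. A miRNA finds its targets mainly through its seed, the bases next to its 5′ end.

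The mature sequences show which of the 6 can share targets and which the array must tell apart by 1 base. They were taken from RefSeq (build GRCr8), which held all 6, and are written 5′ to 3′ with the seed (bases 2 to 8) in capitals. The relatives miR-100 and let-7a are shown for the comparison of families further on.
miR-10a-5p: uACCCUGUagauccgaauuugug
miR-10a-3p: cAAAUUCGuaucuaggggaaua
miR-10b: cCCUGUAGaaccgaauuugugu
miR-196a: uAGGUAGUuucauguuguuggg
miR-196b: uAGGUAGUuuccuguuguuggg
miR-196c: uAGGUAGUuucguguuguuggg
miR-100: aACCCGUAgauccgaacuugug
let-7a: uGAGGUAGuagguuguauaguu

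The 3 miR-196 miRNAs had the same seed, AGGUAGU, and differed from each other at position 12 alone, counted from 1 at the 5′ end: A12C in miR-196b and A12G in miR-196c, each relative to miR-196a. miR-10b differed from miR-10a-5p by U12A in the numbering of miR-10a-5p. RefSeq starts the mature miR-10b 2 bases later, and the 2 hairpin bases before that start, UA, were the first 2 of miR-10a-5p, so the seeds written above are shifted against each other while the sequences match at all but 1 of 23 positions. miR-10a-3p is the opposite arm of the miR-10a hairpin and has a seed of its own. The array's probes were designed to earlier names, and whether the probes of one miRNA also caught its 1-base neighbour was not tested, since the files hold no probe sequences.

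The loci were spread over the 4 Hox clusters. In GRCr8, miR-10a-5p lay at chr10:81779730-81779752 and miR-10a-3p at chr10:81779771-81779792, both on the plus strand, between Hoxb5 and Hoxb4. miR-196c lay in the same cluster at chr10:81727561-81727582, plus strand, between Hoxb13 and Hoxb9, with 5 Hoxb genes between it and miR-10a. miR-10b lay within the annotated span of Hoxd4 at chr3:80035886-80035907, plus strand. miR-196a lay between Hoxc10 and Hoxc9 at chr7:135988900-135988921, plus strand, and miR-196b between Hoxa9 and Hoxa10 at chr4:82661149-82661170, minus strand. For comparison, miR-100 lay at chr8:50798307-50798328 and 1 of the 2 let-7a loci at chr8:50805219-50805240, outside the Hox clusters.

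Signals here are background-subtracted spot intensities, averaged over a miRNA's 20 spots and scaled so that each array had the same 75th percentile over commonly detected miRNAs. Such a scaled signal sets 1 miRNA against the rest of its array; it is no absolute amount, and levels of different miRNAs cannot be set against each other because each probe binds differently. Kidney arrays detected 169 to 216 of the 350 miRNAs, and 6 of 8 plasma arrays detected 156 to 211. The arrays of plasma pool 4 stood apart, with 95 miRNAs detected in the CI-AKI pool and 84 in the control pool, so most results of the members that rest on plasma are given with and without them. All 8 plasma arrays lay on 1 slide and all 8 kidney arrays on another, so tissue, slide and scan cannot be told apart. On both slides CI-AKI and control pools alternated by column, so treatment and slide column cannot be told apart. Pools 1 and 2 of each group lay in slide row 1 and pools 3 and 4 in slide row 2.

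All 6 miRNAs were detected on each of the 8 kidney arrays. In plasma only miR-10a-5p and miR-10b were detected on each of the 8 arrays. miR-10a-3p was detected in 1 CI-AKI and 3 control plasma pools, miR-196b in 1 CI-AKI and 0 control pools, and miR-196a and miR-196c in 0 pools of either plasma group.

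**Figure D1:**
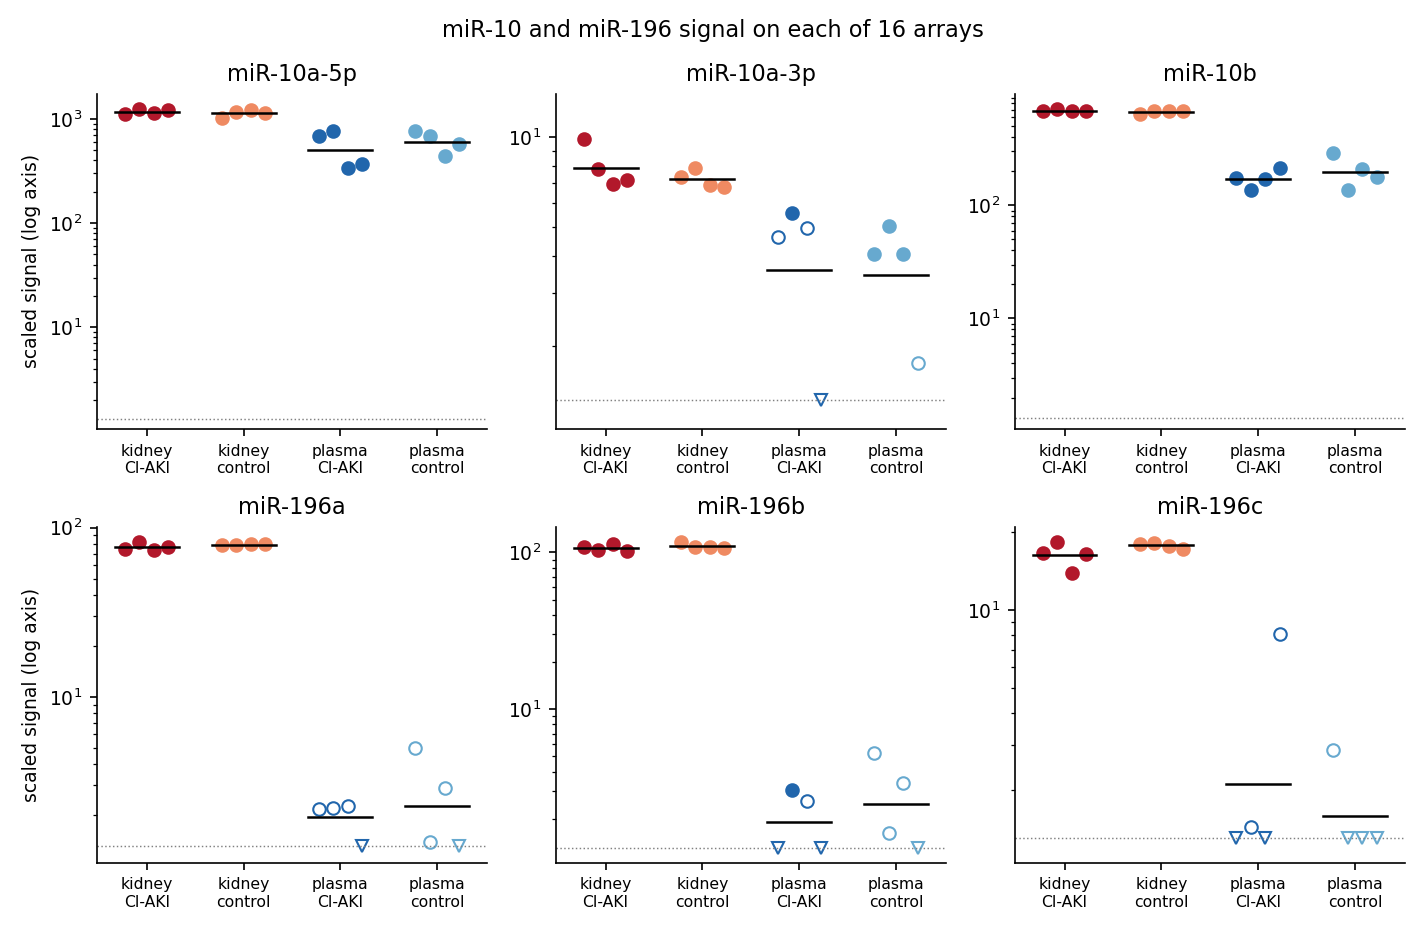
Scaled signal (log axis, 75th percentile scaling over all 16 arrays) of the 6 miRNAs in pools 1 to 4 of each group, left to right. Filled points were detected, open points were not, triangles lie at the floor of 1.31 (dotted line), and bars are geometric means of the floored values; every kidney point lies above every plasma point in all 6 panels.

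The first comparison asked whether contrast medium changed these miRNAs in the kidney within 8 h. None of the 6 passed the test (limma with Benjamini-Hochberg adjustment over 176 miRNAs, adjusted p = 0.917 for each), and the CI-AKI and control pools overlapped for each of them. Across all miRNAs tested, 1.7% passed and 5.11% had groups that did not overlap. The differences were small on both sides of 0: 3 of the 6 were positive and the median log2 difference was -0.0036, against 0.028 for all 176. In such whole-kidney RNA, a change in the share of cells of a type and a change in RNA per cell cannot be told apart.

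miR-10a-5p, the main product of the miR-10a hairpin, had kidney-scaled signals of 2340, 2573, 2269 and 2615 in CI-AKI pools 1 to 4, against 2169, 2441, 2602 and 2269 in control pools. The highest CI-AKI pool and the highest control pool were nearly level, and the groups overlapped over most of their range. CI-AKI minus control was 0.05 on the log2 scale (SE 0.08, 95% interval -0.13 to 0.23).

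miR-10b, known for promoting invasion in human breast cancer cells, read 1431, 1475, 1343 and 1478 in CI-AKI kidney and 1362, 1427, 1456 and 1360 in control kidney. The lowest pool of all was a CI-AKI pool, and so was the highest. Its log2 difference of 0.03 (SE 0.06, 95% interval -0.11 to 0.17) was the nearest to 0 of the 6.

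miR-10a-3p, the opposite arm of the miR-10a hairpin, read 20.8, 16.2, 13.7 and 15.4 in CI-AKI kidney and 15.6, 16.4, 14.6 and 13.4 in control kidney. CI-AKI pool 1 was above the other 7 pools, which were mixed. The resulting log2 difference was 0.13 (SE 0.13, 95% interval -0.16 to 0.41), and without CI-AKI pool 1 it was 0.01 (limma adjusted p = 0.966).

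miR-196a, the miRNA shown to cleave Hoxb8 in the mouse, read 157.5, 169.6, 146.4 and 164.4 in CI-AKI kidney and 168.4, 163.5, 168.5 and 158.4 in control kidney. CI-AKI pools held both the highest and the lowest value. The mean was 159.5 ± 10.1 in CI-AKI and 164.7 ± 4.81 in control kidney (SD, n = 4 each), a log2 difference of -0.05 (SE 0.07, 95% interval -0.20 to 0.10).

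miR-196b, which differs from miR-196a by A12C, read 227.5, 216, 223.4 and 220.1 in CI-AKI kidney and 246.8, 223.4, 228.8 and 212.9 in control kidney. Control pool 1 was the highest of the 8, and the CI-AKI values lay within the control range. This gave a log2 difference of -0.04 (SE 0.06, 95% interval -0.18 to 0.11), and without control pool 1 it was 0.00089, of the opposite sign.

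miR-196c, which shares the Hoxb cluster with miR-10a, read 35.2, 38.0, 27.6 and 35.3 in CI-AKI kidney and 38.4, 37.8, 37.4 and 34.1 in control kidney. CI-AKI pool 3 was the lowest, on an array whose total signal of 46920 was also the lowest in kidney, the others lying between 68628 and 95988. Whether the weaker array bears on this value was not tested. The log2 difference was -0.13 (SE 0.10, 95% interval -0.36 to 0.10), and without that pool -0.04.

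The test had room to see larger changes: in simulated data of this design and spread, a log2 change of 1 was recovered for 94.8% of changed miRNAs. In each draw 20 of the 176 miRNAs were changed, and recovery with fewer changed miRNAs was not tested. The 6 differed in how tightly the 8 kidney arrays agreed. After removal of the group means, the SD on the log2 scale was 0.06 for miR-10b, the 7th smallest of 163 miRNAs detected on all kidney arrays, 0.07 for miR-196b (15th) and 0.07 for miR-196a (19th), against a median of 0.12. It was 0.11 for miR-10a-5p (66th), 0.15 for miR-196c (107th) and 0.20 for miR-10a-3p (132nd).

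**Figure D2:**
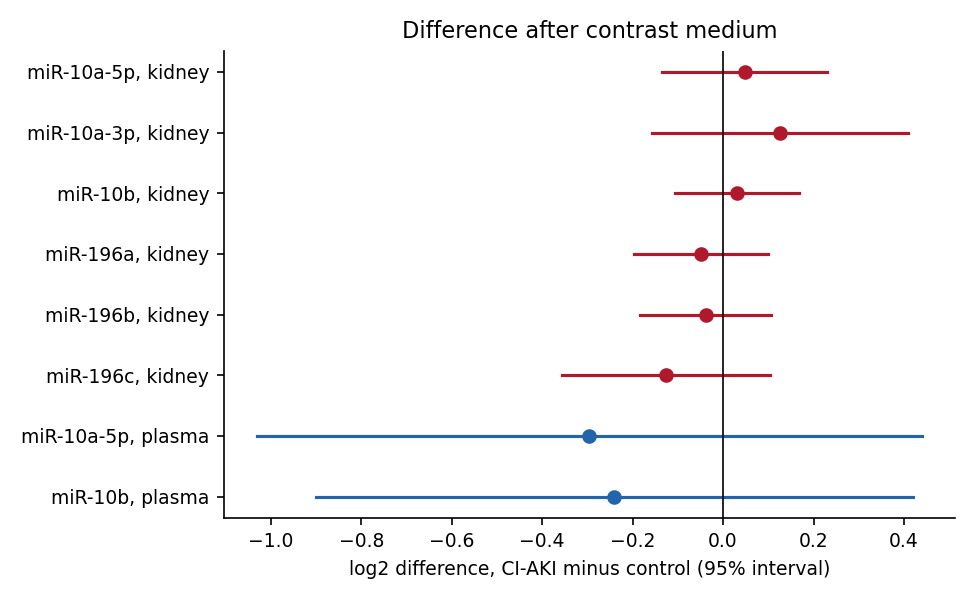
Log2 difference, CI-AKI minus control, with its 95% interval (limma) for the 6 miRNAs in kidney (red) and the 2 tested in plasma (blue); n = 4 pools per group. Each interval includes 0, and the plasma intervals are wider than the kidney ones.

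The same question in plasma could be put only to miR-10a-5p and miR-10b, the members detected on all 4 arrays of a plasma group. Neither passed the test (limma, adjusted p = 0.941 for both). Of all 96 miRNAs tested in plasma, 0% passed, with 5 at an unadjusted p under 0.05, and 5.21% had groups that did not overlap. In simulated plasma data, with 20 of the 96 miRNAs changed per draw, a log2 change of 1 was recovered for 34.8% of them. A change of 2 was recovered for 89%, so a moderate change was not reliably detectable here.

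miR-10a-5p read 333.1, 340.4, 162.8 and 178 in CI-AKI plasma and 369.6, 333.7, 219.2 and 276 in control plasma, scaled over plasma arrays. Pools 3 and 4, in slide row 2, were lower than pools 1 and 2, in row 1, in both groups. A trait of these pools and their slide row cannot be told apart. Within row 1 the log2 difference, CI-AKI minus control, was -0.06, and within row 2 it was -0.53. Over all pools CI-AKI minus control was -0.30 on the log2 scale (SE 0.33, 95% interval -1.03 to 0.44), and without both pool 4 arrays it turned to 0.07 (SE 0.42).

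miR-10b read 84.2, 61.6, 82.8 and 102.8 in CI-AKI plasma and 140.7, 67.2, 105.4 and 86.3 in control plasma. Control pool 1 was the highest and CI-AKI pool 2 the lowest, with the rest mixed. This gave a log2 difference of -0.24 (SE 0.30, 95% interval -0.90 to 0.42), and -0.15 without both pool 4 arrays.

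The treatment effect in kidney minus that in plasma was 0.30 (SE 0.35) for miR-10a-5p and 0.23 (SE 0.27) for miR-10b on the log2 scale. Neither passed the interaction test (limma, adjusted p = 0.929 for both, over 87 miRNAs of which 1.15% passed), and the 95% intervals ran from -0.44 to 1.04 and from -0.36 to 0.81. Without both plasma pool 4 arrays the values were 0.0043 for miR-10a-5p and 0.21 for miR-10b (limma adjusted p = 0.992 and 0.837).

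Kidney and plasma were compared next. Relative to the other miRNAs on each array, all 6 were higher in kidney than in plasma, in CI-AKI and in control rats, and passed the test in both (limma, adjusted p at most 0.039), although with normexp background correction 4 of them turned lower in kidney in CI-AKI and 2 in control rats. Under normexp miR-10a-5p and miR-10b, higher in both treatments, passed in control rats and not in CI-AKI rats, and miR-196a and miR-196b no longer passed in control rats (0.25 and 0.61 on the log2 scale, limma adjusted p = 0.758 and 0.446). Of all miRNAs tested, 28.2% of 181 were called higher in kidney in CI-AKI rats and 33.1% of 178 in control rats. The kidney and plasma pools of these 6 did not overlap, as was so in that direction for 28.7% of all miRNAs tested in CI-AKI and 33.7% in control rats. The log2 differences of miR-10a-5p and miR-10b were 1.22 and 2.00 in CI-AKI and 0.92 and 1.78 in control rats. The medians over all miRNAs tested were -0.59 in CI-AKI and -0.40 in control rats. Only miR-10a-5p and miR-10b were detected on all arrays of both tissues. The miR-196 members entered the test through the kidney arrays alone, as miR-10a-3p did in CI-AKI and in control rats, so their passing adds no support and their values are given as a description.

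miR-10b had jointly scaled signals of 677, 713, 678 and 687 in CI-AKI kidney, against 173.7, 138, 170.6 and 213 in CI-AKI plasma. Control rats gave 641, 687, 687 and 687 in kidney, against 291, 138.2, 209.8 and 178 in plasma. The lowest kidney pool was thus above the highest plasma pool in both treatments. The log2 difference was 2.00 (SE 0.20, 95% interval 1.56 to 2.45, limma adjusted p = 1e-05) in CI-AKI and 1.78 (SE 0.22, 95% interval 1.27 to 2.28, limma adjusted p = 0.000104) in control rats.

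The repeated value of 687 arose from the scaling, since miR-10b was itself the 75th percentile on control kidney pools 2, 3 and 4 and on CI-AKI kidney pool 4. With the percentile taken without the 6 miRNAs, a setting chosen after seeing the data, miR-10b ran from 694 to 757 in CI-AKI kidney against 140.9 to 199 in CI-AKI plasma, and from 654 to 735 in control kidney against 128.2 to 286 in control plasma. The log2 differences were then 2.11 in CI-AKI and 1.90 in control rats (limma adjusted p = 5.31e-06 and 9.75e-05). With the percentile over all miRNAs commonly detected but without both plasma pool 4 arrays, they were 2.26 in CI-AKI and 2.05 in control rats.

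miR-10a-5p read 1107, 1244, 1146 and 1216 in CI-AKI kidney, against 686.9, 762.9, 335.4 and 369.1 in CI-AKI plasma. Control rats gave 1021, 1175, 1228 and 1146 in kidney, against 763.4, 686.9, 436.3 and 569.6 in plasma. Plasma pools 1 and 2, both in slide row 1, came closest to the kidney values, without overlap. The log2 difference was 1.22 (SE 0.30, limma adjusted p = 0.00415) in CI-AKI and 0.92 (SE 0.19, limma adjusted p = 0.00208) in control rats. miR-10a-5p was itself the percentile on CI-AKI plasma pool 1 and control plasma pool 2, and with the percentile taken without the 6 miRNAs its log2 differences were 1.33 in CI-AKI and 1.05 in control rats. Without both plasma pool 4 arrays they were 1.22 in each treatment (limma adjusted p = 0.0025 in CI-AKI and 0.00051 in control rats).

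Because both were detected on all 16 arrays, the miR-10 pair could also be set against each other within an array, which needs no scaling, in a test added after seeing the data. The unscaled signal of miR-10b divided by that of miR-10a-5p was 0.612, 0.573, 0.592 and 0.565 in CI-AKI kidney, against 0.253, 0.181, 0.509 and 0.577 in CI-AKI plasma. In control rats the ratio was 0.628, 0.584, 0.559 and 0.599 in kidney, against 0.381, 0.201, 0.481 and 0.313 in plasma. The kidney ratios were nearly constant and the plasma ratios scattered.

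In control rats the kidney and plasma ratios did not overlap, and the kidney ratio was 1.81-fold the plasma ratio (two-sided exact permutation test, p = 0.0286, the smallest p that 70 labellings can give). In CI-AKI rats it was 1.72-fold, with overlap through plasma pool 4 (exact permutation p = 0.0857). Without plasma pool 4 the ratios did not overlap in either treatment, at 2.06-fold in CI-AKI and 1.78-fold in control rats (exact permutation p = 0.0571 for both). This is the smallest p that 4 against 3 pools can give, so this test could not pass. After adjustment over the 4 comparisons of this ratio with all pools neither passed (exact permutation tests, Benjamini-Hochberg p = 0.114 and 0.171, control and CI-AKI in that order). A single comparison at the smallest possible p could not pass this adjustment. CI-AKI and control ratios overlapped in kidney (exact permutation p = 0.686) and in plasma (exact permutation p = 0.943). The ratio in the authors' processed values did not overlap between kidney and plasma in either treatment, at 2.22-fold in CI-AKI and 2.25-fold in control rats (exact permutation p = 0.0286 for both, not adjusted). Unlike the ratio of unscaled signals, this one may depend on the authors' processing.

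**Figure D3:**
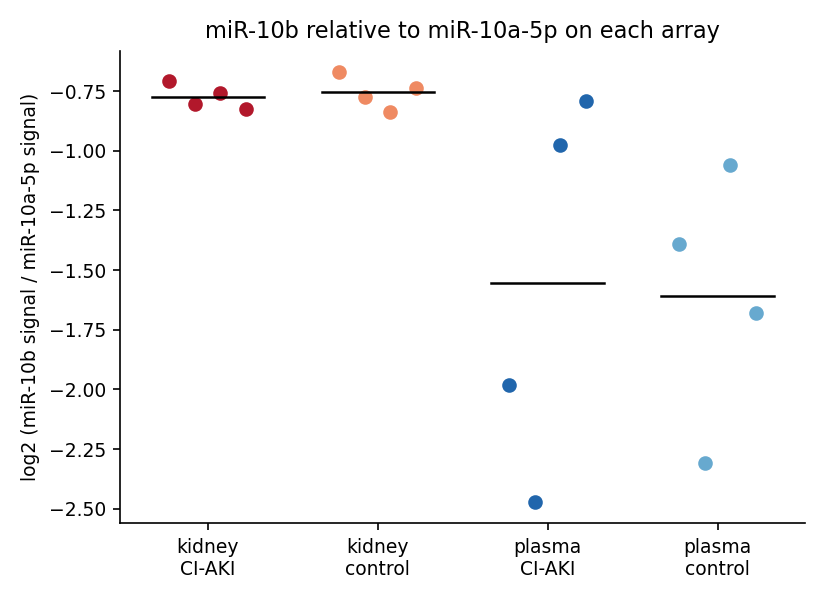
Log2 ratio of the unscaled signals of miR-10b and miR-10a-5p on each array, pools 1 to 4 left to right in each group, with group means as bars. Kidney ratios lie close together, with group means of -0.77 (CI-AKI) and -0.76 (control), and plasma ratios are spread around means of -1.55 (CI-AKI) and -1.61 (control).

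The miR-196 members were detected in all kidney pools and, with 1 exception, in no plasma pool, so only a bound of the fold under a chosen rule could be had. The bound sets the kidney mean against the plasma mean of, per array, the higher of the miRNA's own signal and the lowest signal detected there, as means of scaled log2 values. That lowest signal may be of any miRNA and is no detection limit of a given one. On control plasma pool 1 it was 2.32, while miR-196a read 5.00 there and was not detected. The bounds also hold for this scaling alone: with normexp miR-196a was -0.814 in CI-AKI and 0.252 in control rats on the log2 scale. miR-196a read 74.6, 82.0, 73.9 and 76.4 in CI-AKI kidney and -7.89 to 2.26 in CI-AKI plasma, where it was not detected. Control rats gave 79.3, 78.7, 79.5 and 80.0 in kidney and -2.42 to 5.00 in plasma, again not detected. By this rule it was at least 12.2-fold higher in kidney than in plasma in CI-AKI and at least 13.9-fold higher in control rats. These bounds were not tested. The weak pool 4 arrays set this limit low, and without them the bounds were 22.2-fold and 27.3-fold.

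miR-196b read 107.7, 104.4, 112.8 and 102.3 in CI-AKI kidney, against -4.22 to 3.07 in CI-AKI plasma, where pool 2 alone gave a detected signal, the 3.07. In control rats it read 116.2, 107.6, 108 and 107.5 in kidney and -24.3 to 5.28 in plasma, undetected in all 4 pools. By the same rule it was at least 18.2-fold higher in kidney in control rats, and at least 35.1-fold without plasma pool 4. The fitted log2 difference in CI-AKI rats, which rests on values set to the floor in part, was 5.80 (SE 0.31) and is a description.

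miR-196c read 16.7, 18.4, 13.9 and 16.4 in CI-AKI kidney and -1.89 to 8.09 in CI-AKI plasma, where the 8.09 of pool 4 lay below that array's lowest detected signal of 38.1. In control rats it read 18.1, 18.2, 17.7 and 17.2 in kidney and -9.28 to 2.86 in plasma. By the same rule it was at least 3.1-fold higher in kidney in CI-AKI and at least 4.18-fold higher in control rats. Without pool 4 these bounds were 6-fold and 9.04-fold. Such bounds depend on how bright a probe is and do not rank the 3 miR-196 members.

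miR-10a-3p read 9.84, 7.81, 6.94 and 7.16 in CI-AKI kidney, against 4.62, 5.55, 4.97 and -1.14 in CI-AKI plasma. In control rats it read 7.35, 7.87, 6.89 and 6.78 in kidney, against 4.04, 5.03, 4.04 and 1.74 in plasma. It was detected in CI-AKI plasma pool 2 and control plasma pools 1, 2 and 3, and the other 4 plasma values are of undetected signals. The highest plasma pool lay below the lowest kidney pool in both treatments. With the rule used for the bounds of miR-196, however, the plasma limits of 9.64 in CI-AKI and 7.72 in control rats exceeded the kidney geometric means of 7.86 and 7.21, so no fold can be given with all pools. Without plasma pool 4 the limits were 6.10 in CI-AKI and 4.35 in control rats, below those means. All control plasma pools then left had detected it, but only 1 CI-AKI pool. The fitted log2 differences of 1.13 in CI-AKI (SE 0.44, limma adjusted p = 0.039) and 1.06 in control rats (SE 0.31, limma adjusted p = 0.014) rest on the undetected plasma values. Neither call held with the total signal per miRNA (0.97 and 0.51, limma adjusted p = 0.114 and 0.459), nor did that in CI-AKI rats with log2(signal + 1) (1.2, limma adjusted p = 0.0773). Without CI-AKI plasma pool 1, or without any single CI-AKI kidney pool, the adjusted p in CI-AKI rats lay between 0.0533 and 0.0904. Without CI-AKI plasma pool 4 the log2 difference was 0.64, with an adjusted p of 0.0146.

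Each miRNA was read by 2 to 4 probes. Both probes of miR-10a-5p, miR-10b, miR-196a and miR-196b were higher in kidney in both treatments. The miR-10b probes differed in size, at log2 differences of 2.73 and 1.88 in CI-AKI and 2.61 and 1.64 in control rats, while those of miR-10a-5p gave 1.30 and 1.17 in CI-AKI and 1.07 and 0.84 in control rats. For miR-196c and miR-10a-3p, 3 of 4 probes were higher in kidney, and the remaining dim one was lower, at -0.91 and -0.47 for miR-196c and -0.40 and -1.31 for miR-10a-3p (CI-AKI and control in that order). The tissue differences of miR-10a-5p and miR-10b were positive within both slide rows, with 2 pools per group in each. In CI-AKI rats they were 0.70 in row 1 and 1.75 in row 2 for miR-10a-5p, and 2.17 and 1.84 for miR-10b. In control rats they were 0.60 and 1.25 for miR-10a-5p, and 1.73 and 1.83 for miR-10b. The miR-196 members and miR-10a-3p were also positive in both rows. They passed the filter through kidney alone, so their probe and row values are a description.

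Relatives by sequence were read beside them. The miR-99, miR-100 and miR-125 miRNAs are relatives of miR-10, and miR-100 shares an unbroken run of 11 bases, GUAGAUCCGAA, with miR-10a-5p. Of these 5, 4 were called higher in kidney in CI-AKI and 5 in control rats, against the 28.2% and 33.1% of all miRNAs given above, with median log2 differences of 1.30 and 1.77. These counts ran from 3 to 5 in each treatment as single pools were left out, and the control count was 3 with the replicate block. With normexp 0 of 5 were called in either treatment, and 0 in CI-AKI and 2 in control rats were still higher in kidney. In both treatments miR-99b, miR-100 and miR-125a-5p were detected in only some plasma pools, as was miR-99a in control rats, so they passed the detection filter through kidney alone and their differences are a description. In CI-AKI rats miR-125b-5p and miR-99a, detected in all plasma pools there, differed by 0.53 and 0.89 on the log2 scale. The CI-AKI differences of miR-100 and miR-125a-5p, which passed through kidney alone, were 1.30 and 2.01. miR-99b, detected in 1 CI-AKI and 2 control plasma pools, had fitted differences of 2.34 in CI-AKI and 2.95 in control rats. The exception was miR-125b-5p in CI-AKI rats, at 0.53 (limma adjusted p = 0.174). After contrast medium 0 of the 5 were called in kidney, and 0 of the 2 tested were called in plasma.

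The let-7 family, regulators of developmental timing, has the run AGGUAGU of the miR-196 seed 1 base further from its 5′ end. Of its 8 members, 7 were called higher in kidney in each treatment, with medians of 1.73 in CI-AKI and 1.51 in control rats. Of all miRNAs tested, 28.2% in CI-AKI and 33.1% in control rats were called higher. With normexp 4 of the 8 were called higher in CI-AKI and 6 in control rats, and miR-98 turned lower in both. In CI-AKI rats let-7a, let-7b, let-7c and let-7d differed by 2.41, 1.57, 1.53 and 1.72 on the log2 scale, and in control rats by 2.11, 1.30, 1.17 and 1.71. let-7e, at 4.35 in CI-AKI and 4.04 in control rats, was detected in 3 of 4 plasma pools of each treatment and so passed the filter through kidney alone, as did miR-98 in CI-AKI rats. The exception, named after its values were seen, was let-7i, which was called lower in kidney, at -0.59 in CI-AKI and -0.41 in control rats (limma adjusted p = 0.0296 and 0.0129), as were 46.4% and 44.4% of all miRNAs tested. In CI-AKI rats that call was lost without plasma pool 1, without pool 4 of both plasma groups (not without CI-AKI pool 4 alone), without any single kidney pool, with the replicate block, and with each other scaling or normexp. In control rats it was lost without plasma pool 4, with normexp and with the authors' values. The sign of let-7i turned in both treatments without scaling and with the percentile over all miRNAs, and in control rats with quantile scaling. In the kidney treatment comparison 0 of the 8 were called, with a median log2 difference of -0.06. In plasma 0 of the 7 tested were called.

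**Figure D4:**
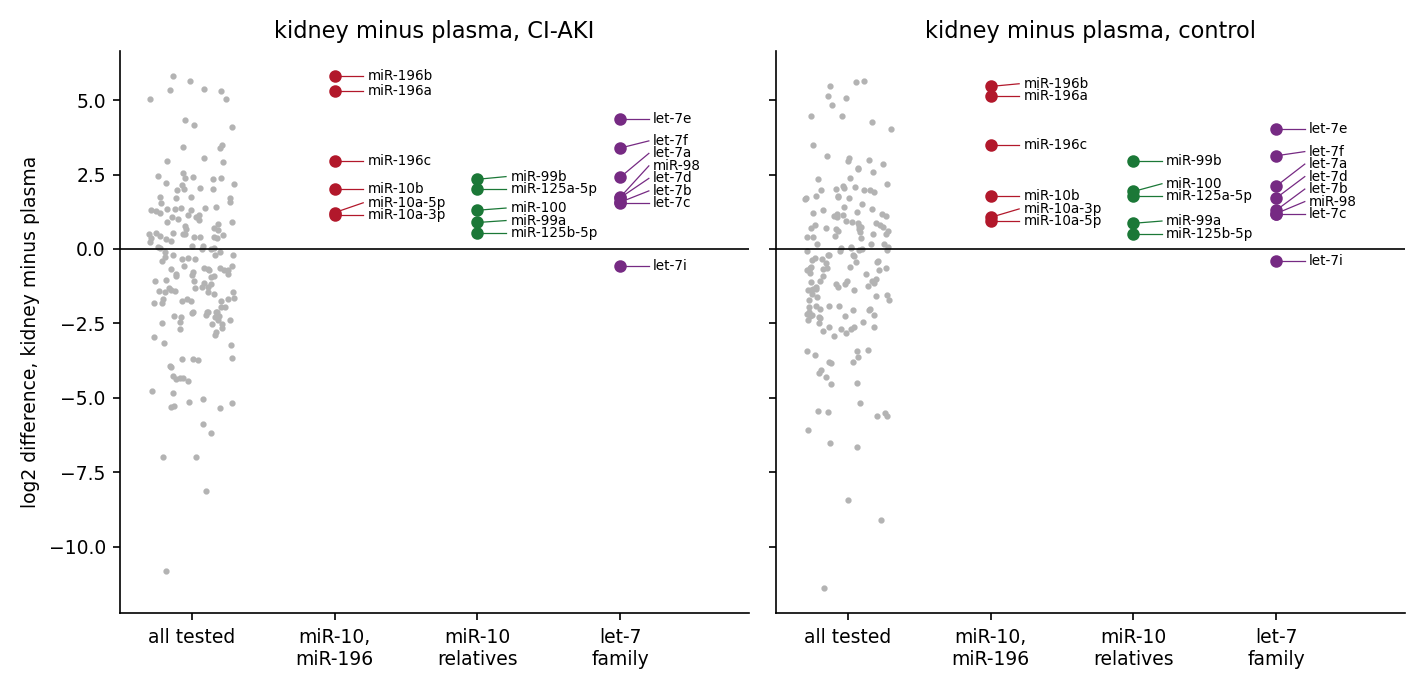
Log2 difference, kidney minus plasma, in CI-AKI rats (left) and control rats (right), n = 4 pools per group, for all miRNAs tested (grey, spread sideways at random), the 6 miRNAs (red), the relatives of miR-10 (green) and the let-7 family (purple). The red points lie between 1.13 and 5.80 in CI-AKI and between 0.92 and 5.46 in control rats, those of the miR-196 members and miR-10a-3p resting on plasma values that were in part or wholly undetected.

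Markers of cell types were summed in each pool. The 9 miRNAs listed for kidney epithelium were detected in all kidney pools, with summed scaled signals of 3248 to 3647 in CI-AKI and 3208 to 3464 in control kidney, while 3 of 9 were detected in all pools of plasma, at 700 to 1688 in CI-AKI and 783 to 1465 in control plasma. The erythroid markers on the array, 2 of 3 listed, summed to 183 to 200 in CI-AKI kidney and 3535 to 13260 in CI-AKI plasma, and to 105.4 to 227 in control kidney and 5425 to 8938 in control plasma. The liver marker miR-122 was undetected in all 8 kidney pools. The 5 leukocyte markers were detected in all kidney pools, at 415 to 536 in CI-AKI and 448 to 516 in control kidney, against 3612 to 8014 in CI-AKI and 5411 to 6842 in control plasma. The 4 smooth muscle and stroma markers, a list for solid tissue, summed higher in plasma, at 566 to 676 in CI-AKI kidney against 761 to 2516 in CI-AKI plasma and 582 to 696 in control kidney against 1435 to 2629 in control plasma. The part of these markers in the miR-10 and miR-196 values was not tested.

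Within the kidney, the 6 did not move as a block from pool to pool. Pearson's r of log2 signals over the 8 kidney arrays, which share scaling and a slide, was 0.918 between miR-10a-5p and miR-10b and 0.944 between miR-196a and miR-196c. miR-196b stood apart from its seed partners, with r = 0.232 to miR-196a and 0.26 to miR-196c. The arms of the miR-10a hairpin, miR-10a-5p and miR-10a-3p, gave 0.0712, and miR-10a-5p with miR-196b gave -0.425.

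Among 157 other miRNAs detected on all kidney arrays, the pattern most like each member over those arrays was that of miR-150 for miR-10a-5p (r = 0.945), miR-374 for miR-10a-3p (0.967), miR-17-5p for miR-10b (0.89), miR-100 for miR-196a (0.913), miR-142-3p for miR-196b (0.887) and miR-542-3p for miR-196c (0.907). The next were miR-9 and miR-375 for miR-10a-5p (0.825 and 0.815), miR-32 and miR-489 for miR-10a-3p (0.948 and 0.916), and miR-146b and miR-23a for miR-10b (0.875 and 0.86). For the miR-196 members they were miR-182 and let-7c for miR-196a (0.91 and 0.908), miR-378* and miR-532-5p for miR-196b (0.821 and 0.794), and miR-100 and miR-93 for miR-196c (0.88 and 0.865). The median r over all candidates ran from 0.072 for miR-196a to 0.277 for miR-10b. These are the extremes of many correlations over 8 arrays and are given as a description only.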

How the data were processed

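Each of 16 arrays read total RNA of 1 pool, labelled with an Agilent miRNA kit per the labels' protocols. Per the file headers, Agilent Feature Extraction 10.7.3.1 produced the spot intensity, and the deposited files give a background-subtracted processed signal per spot (7000 spots), a total signal and a detection call per miRNA. A second table, of log2 values processed and deposited by the authors, served as an alternative; how it was made is not given in the sources used here.

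The processed signals of a probe's spots were averaged, then the probes of a miRNA, leaving out outlier-marked and control spots. Each array was scaled by the 75th percentile of the miRNAs that all compared arrays detected (163 in kidney, 74 in plasma, 65 over both), values were floored (1.79, 0.976 and 1.31, in that order) and log2 was taken, which understates differences of dim miRNAs. No spot was saturated. miRNAs detected on all 4 arrays of a compared group were tested with limma 3.58.1 in R 4.3.3 (lmFit, eBayes, two-sided, Benjamini-Hochberg, threshold 0.05) and the code was tested on simulated data; single ratios had exact permutation tests (scipy 1.17.1, Python 3.11.15). Figures used matplotlib 3.10.9.

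The 6 miRNAs and the lists beside them were chosen with earlier results of these data known. The miRNAs with the most similar pattern were the 3 with the highest r over the 8 kidney arrays, and up to 5 miRNAs of each list were named in list order. Alternatives were other scalings, background corrections, filters, blocks and left-out pools. Pools with the same number deviated together in plasma (r = 0.224, 0.488, 0.619 and 0.603 over 96 miRNAs), which is the only basis for pairing them, and did not do so throughout in kidney (r = -0.0999 to 0.588). The labels' letter codes gave 6 of 8 letters opposite treatments in kidney and plasma, so tissues were not paired. Nothing states that pools of a group are more than separate pools, so p-values cover the spread between these pools.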

Additional observations from a re-analysis of the deposited data

Results flagged for a closer look

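Of 36 checks of 4 pools with Dixon's test at the 95% level, which chance alone passes in about 1 of 20, 2 found a pool far from the others. Each miRNA was checked under both scalings, so the checks are not independent. Both flags arose with the scaling over both tissues. miR-10b in control kidney pool 1 had a jointly scaled signal of 641, while the other 3 pools all stood at 687; these 3 values are equal because miR-10b was itself the scaling percentile there, so the gap carries no information on spread. miR-196b in control kidney pool 1 read 116.2, against 107.5 to 108 in the other 3 control pools. In the kidney treatment comparison, scaled over kidney arrays, that pool was not flagged. Leaving that pool out there turned the sign of the difference of miR-196b to 0.00089, with neither value near the threshold.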

How the results depend on the processing

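Over 22 combinations of a miRNA and a comparison, 500 alternatives were computed, of which 464 kept the direction and the side of the threshold, 16 kept the direction but no longer passed, and 20 changed sign. All sign changes in the treatment comparisons were among values that did not pass. In kidney these were miR-10a-3p at -0.0438 (quantile) and -0.0262 (authors' values), miR-10b at -0.00217 (quantile) and -0.0115 (no scaling), miR-10a-5p at -0.0183 (authors' values), and miR-196b, which ranged from -0.0753 to 0.000889 as single pools were left out. In plasma they were miR-10a-5p at 0.0705 without pool 4 of both groups, and miR-10b at 0.249 with normexp and 0.0815 with normexp and no pool 4. The interaction of miR-10b was -0.261 with normexp and -0.102 with normexp and no pool 4.

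Between tissues, normexp alone turned signs. It adds an offset of 50. The percentile of the processed signal, to which no offset was added, was 32.6 on control plasma pool 4 and 59.8 on CI-AKI plasma pool 4. Whether the offset bears on the signs was not tested. With normexp miR-10a-3p was -2.36, miR-196a -0.814, miR-196b -0.455 and miR-196c -2 in CI-AKI rats. In control rats miR-10a-3p was -1.38 and miR-196c -0.925 with normexp. Without pool 4, a combination chosen after seeing the data, miR-10a-3p was -1.33 and miR-196c -0.95 in CI-AKI rats, and miR-10a-3p was -0.316 in control rats. miR-10a-5p and miR-10b stayed higher in kidney under each alternative, but did not pass with normexp in CI-AKI rats (0.928 and 0.967, limma adjusted p = 0.0518 and 0.123), nor did miR-10a-5p without scaling in control rats (2.96, limma adjusted p = 0.0611). Calls also lost were miR-196a and miR-196b with normexp in control rats (0.252 and 0.608) and with normexp and no pool 4 in CI-AKI rats (0.228 and 0.584), miR-196c with normexp and no pool 4 in control rats (0.154), and miR-10a-3p as given in the report. Scaling moved the median of all miRNAs, from -0.588 in CI-AKI and -0.398 in control rats to 1.48 and 1.36 without scaling and to -2.16 and -1.37 with normexp.

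The number of miRNAs called in the kidney treatment comparison was 3, and it was 1 with quantile scaling, without scaling or with all 4 groups in 1 fit, 0 with normexp or with miRNAs detected on every array, and 2 to 3 as single pools were left out. In plasma it was 0 under all alternatives run. Between tissues in CI-AKI rats it was 135 of 181 tested, 82 of 181 without scaling and 71 of 195 with normexp and no pool 4. It was 70 of 84 with detection on every array, and 123 to 157 with single pools left out. In control rats it was 138 of 178 tested, 57 of 178 without scaling and 81 of 178 with normexp. It was 56 of 66 with detection on every array, and 130 to 176 with single pools left out. For the interaction it was 1, and 0 with quantile scaling, no scaling, normexp (with or without pool 4) or detection on every array, 2 without pool 4, and 1 to 4 with single pools left out. With the pool number as a replicate block the counts were 3, 0, 134, 132 and 1 in the order above, and no call of the 6 miRNAs changed. The number of miRNAs tested changed with the detection filter and with left-out pools. The cause of the shifts in these counts was not tested.

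The weak plasma pool 4 arrays limit what plasma shows: undetected miRNAs have only bounds there. The pools, 4 per group, limit precision throughout.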

Other observations

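The opposite strand of miR-196a, carried on the array as miR-196a*, was detected on 0 of 8 kidney arrays although miR-196a was detected on all 8. In plasma miR-196a* was detected in 1 CI-AKI pool and 0 control pools, and miR-196a in 0 pools of either group.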
